A study of Rattus norvegicus with 12 samples.

Results

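Helicobacter and Mucispirillum are 2 genera of this faecal 16S survey that are known as inhabitants of the rodent mucus layer. Their members were taken by name, as every amplicon sequence variant (ASV, an exact 16S sequence told apart from its relatives) whose genus field read Helicobacter or Mucispirillum, without regard to its counts. The rule found 32 of the 7240 ASVs in the table, 19 of Helicobacter and 13 of Mucispirillum. All 19 stood in the family Helicobacteraceae of the Campilobacterota, a phylum that otherwise held 2 ASVs with 4 reads in these libraries. All 13 stood in the family Deferribacteraceae and were the sole ASVs of the Deferribacterota. Levels are given as the percentage of a library's reads, and ASVs are numbered within each genus by their mean share over the 12 libraries.

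The samples were faeces of rats in 4 groups of 3 libraries. Sham stands for the sham operation. SAH, the short form of subarachnoid haemorrhage, is bleeding into the space around the brain, and is the condition that the other 3 groups shared. SAH+Tet adds tetrandrine, a plant alkaloid named in the series title, and SAH+Tet+ABX adds ABX, a usual short form for antibiotics, to haemorrhage and tetrandrine. The groups thus add the haemorrhage, the drug and the antibiotics in turn, but no group had the antibiotics alone or tetrandrine without the haemorrhage. Strain, age, sex, doses, times and the antibiotics used were not given in the sources used here. The labels do not say that the libraries of a group came from separate rats, so p-values measure the spread between these libraries, which may be partly technical.

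Library totals ran from 495890 to 519889 reads in Sham, from 248285 to 531426 in SAH, from 227301 to 516810 in SAH+Tet and from 211450 to 244856 in SAH+Tet+ABX. The 5 libraries under 300000 reads were the whole antibiotic group, SAH+Tet 3 and SAH 1, so that depth moved with the antibiotics. A count of 0 allowed a share of up to 0.00142%, 0.00128% and 0.00123% in SAH+Tet+ABX 1, 2 and 3, where 3 reads are taken as the limit. Intervals and limits of this kind cover counting error only. The values are shares, so a lower share of a genus and a higher share of the rest cannot be told apart, and no count of bacterial cells was measured.

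Helicobacter are spiral, flagellated bacteria that swim through mucus. The group known from the rodent bowel, to which Helicobacter rodentium, Helicobacter typhlonius and Helicobacter muridarum belong, is found in its mucus and crypts, caecum and colon included. Mucispirillum, whose described species is Mucispirillum schaedleri, is a spiral anaerobe first known from the mucus of the rodent gut and belongs to a phylum with few other gut members. Here both genera were measured in faeces, which hold shed mucus beside the contents of the lumen, so the files do not show where in the gut the bacteria lived.

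Helicobacter was present in all 9 libraries without antibiotics and had no read in the 3 with them. In Sham it took 0.545%, 0.211% and 0.235% of the reads of libraries 1 to 3 (2705, 1052 and 1221 reads). The SAH libraries held 0.277%, 0.226% and 0.539% (688, 1199 and 2421 reads). The SAH+Tet libraries held 0.549%, 0.479% and 0.855% (2513, 2475 and 1943 reads). The Sham and SAH values lay in the same range, SAH+Tet 3 was the highest library of all, and SAH+Tet 2 lay below the highest library of both other groups. The plot of both genera by library shows these values with their counting intervals, which are far narrower than the distance between libraries of a group.

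**Figure D1:**
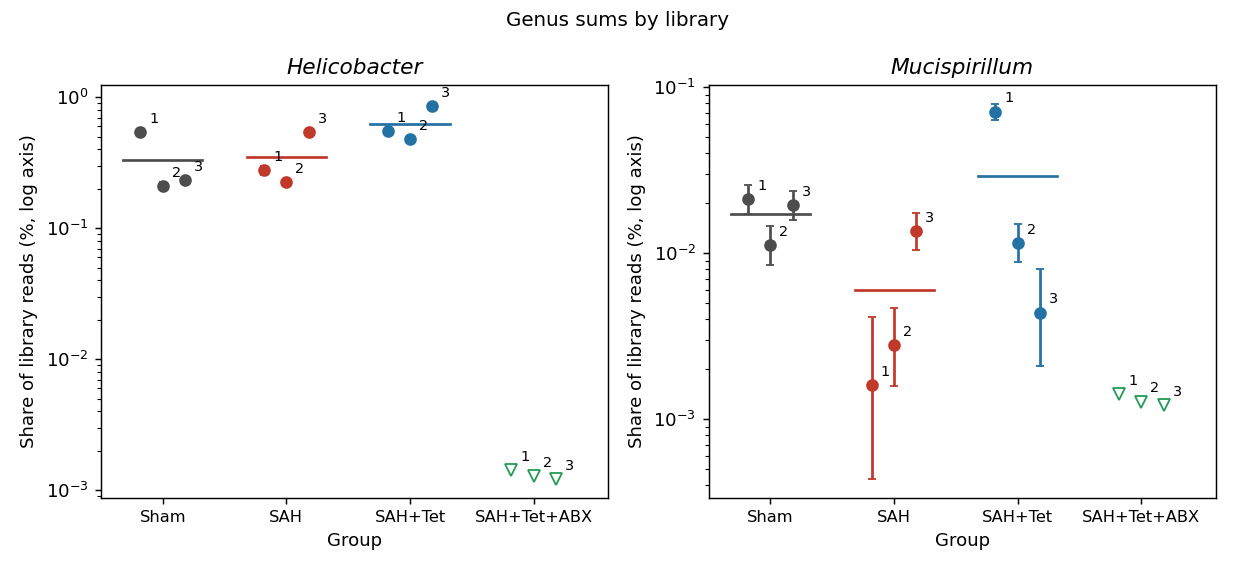
Share of library reads (%, log axis) of Helicobacter and of Mucispirillum in the 12 libraries, by group, with 95% exact binomial intervals as bars, group means as horizontal lines and replicate numbers beside the dots. Open triangles mark libraries with 0 reads at the share that 3 reads would give. Helicobacter lies between 0.211% and 0.855% in the 9 libraries without antibiotics, Mucispirillum between 0.00161% and 0.0714%, and both have 0 reads in all 3 SAH+Tet+ABX libraries.

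The mean Helicobacter share was 0.330% ± 0.187 in Sham (SD, n = 3), 0.347% ± 0.168 in SAH and 0.627% ± 0.200 in SAH+Tet. Between SAH and Sham, the edgeR quasi-likelihood test gave a log2 fold change of 0.20 ± 0.60 (SE), with a Benjamini-Hochberg adjusted p of 0.875. Between SAH+Tet and SAH the log2 fold change was 0.81 ± 0.61 (adjusted p = 0.490, edgeR). Neither difference passed the threshold of 0.05. The mean share differed between SAH+Tet and SAH by 0.280 percentage points, more than the pooled SD of 0.185, and between SAH and Sham by 0.0169 points, less than the pooled SD of 0.178. The direction of the difference between SAH and Sham is not settled either. Its log2 fold change turned to -0.39 on centred log-ratio values. It was also below 0 without Sham 2, without Sham 3 or without SAH 3.

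Among the libraries above 300000 reads, the mean Helicobacter share was 0.330% in Sham, 0.383% in the 2 SAH libraries and 0.514% in the 2 SAH+Tet libraries. Among those below, SAH+Tet 3 held 0.855% and SAH 1 held 0.277%. The ratio of SAH+Tet to SAH was thus 1.34 in the deeper libraries and 3.08 in the shallower pair, against 1.81 over all libraries.

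Mucispirillum was scarcer than Helicobacter in every library that held it. In Sham it took 0.0212%, 0.0112% and 0.0194% (105, 56 and 101 reads). The SAH libraries held 0.00161%, 0.00282% and 0.0136% (4, 15 and 61 reads). The SAH+Tet libraries held 0.0714%, 0.0116% and 0.00440% (327, 60 and 10 reads). SAH 1 and SAH 2 were the lowest libraries and SAH+Tet 1 was the highest, while SAH 3 lay within the range of Sham. The 4 reads of SAH 1 carry a 95% exact binomial interval of 0.000439% to 0.00412%, and the 327 reads of SAH+Tet 1 one of 0.0639% to 0.0796%.

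The mean Mucispirillum share was 0.0173% ± 0.00531 in Sham (SD, n = 3), 0.00601% ± 0.00660 in SAH and 0.0291% ± 0.0368 in SAH+Tet. SAH differed from Sham by a log2 fold change of -1.39 ± 1.11 (SE; edgeR, adjusted p = 0.451), and SAH+Tet from SAH by 2.19 ± 1.14 (edgeR, adjusted p = 0.284). Neither passed the threshold of 0.05. The second rested on SAH+Tet 1: without that library the SAH+Tet mean was 0.00800%, the log2 fold change was 0.40 and the edgeR adjusted p was 0.840. SAH 3 held most of the reads of its group, and without it the SAH mean was 0.00222%.

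In both of these comparisons edgeR called 0 of 187 tested genera (0%), so that the 2 member genera shared their result with every other genus tested. At an unadjusted p under 0.05 there were 55 genera between SAH and Sham and 33 between SAH+Tet and SAH, neither member among them. DESeq2 called 48 and 30 genera, limma on centred log-ratio values 9 and 1, and neither tool called Helicobacter or Mucispirillum in either comparison.

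With antibiotics both genera fell to 0 reads in all 3 libraries. Helicobacter was at least 479.6-fold lower in SAH+Tet+ABX than in SAH+Tet (edgeR adjusted p = 0.000745), where the bound is the SAH+Tet mean over the mean share that 3 reads per antibiotic library would give. Its unadjusted p was the lowest of the 195 genera tested (rank 1). Mucispirillum was at least 22.3-fold lower (edgeR adjusted p = 0.00738, rank 22). Of the 195 genera, 74 were called (37.9%), 56 of them lower, so a fall with antibiotics was common.

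The complete loss of reads was less common among genera than the fall, but neither member stood alone in it. Of the 195 genera, 63 (32.3%) were lower in every SAH+Tet+ABX library than in any SAH+Tet library. Reads in every SAH+Tet library and none in SAH+Tet+ABX were found for 30 genera (15.4%), Helicobacter and Mucispirillum included. Of the 112 genera with reads in all 9 libraries without antibiotics, 21 had no read with them.

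The size of the bound moved more with single libraries for Mucispirillum than for Helicobacter. Leaving out each library in turn moved the Helicobacter bound against SAH+Tet between 393-fold and 536-fold, whereas without SAH+Tet 1 the Mucispirillum bound was 6.12-fold. Against Sham the bounds were 253-fold for Helicobacter and 13.2-fold for Mucispirillum, and against SAH they were 266-fold and 4.59-fold. Without SAH 3 the Mucispirillum bound against SAH was 1.69-fold. Against SAH+Tet 3 alone, the library nearest in depth to the antibiotic group, the bounds were 653-fold and 3.36-fold.

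Over all 4 groups both genera differed by edgeR's quasi-likelihood F test, with adjusted p = 0.00316 for Helicobacter and 0.0245 for Mucispirillum, beside 62 of 195 genera called (31.8%). The exact permutation test of the log10 shares among the 4 groups gave p = 0.00409 for Helicobacter and 0.0120 for Mucispirillum, where the smallest p possible was 6.49e-05. Among Sham, SAH and SAH+Tet alone the same exact permutation test gave p = 0.225 and 0.329. For Mucispirillum the edgeR call was lost without any one of the 3 antibiotic libraries (adjusted p = 0.0516 to 0.0623). The exact permutation p for Mucispirillum rose to 0.217 without the logarithm.

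The order of the mean shares was SAH+Tet, SAH, Sham and SAH+Tet+ABX for Helicobacter, and SAH+Tet, Sham, SAH and SAH+Tet+ABX for Mucispirillum. In both orders neighbouring groups overlapped except at the last step down to antibiotics. The 6 pairs of groups were compared for each genus by a two-sided exact permutation test, which cannot go below p = 0.1 with 3 libraries against 3. Each of the 3 pairs with SAH+Tet+ABX reached that limit in both genera (0.2 after adjustment over the 6 pairs). For Helicobacter the exact p was 0.8 between SAH and Sham and 0.2 both for SAH+Tet against SAH and for SAH+Tet against Sham, with differences in mean share of 0.0169, 0.280 and 0.297 percentage points. For Mucispirillum the exact p was 0.2 between SAH and Sham, 0.3 between SAH+Tet and SAH and 1 between SAH+Tet and Sham.

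Within Helicobacter, 3 ASVs held 90.3% of the 16217 reads. ASV 1 carried the species name Helicobacter rodentium and held 59.9% of the reads of the genus, ASV 2 was listed as an unspecified Helicobacter species with 17.3%, and ASV 3 had no species name and 13.0%. Helicobacter typhlonius (ASV 8, 40 reads, 0.247%) and Helicobacter muridarum (ASV 9, 17 reads, 0.105%) were the remaining species names. A further 14 ASVs had none.

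Helicobacter rodentium was the one member ASV with reads in all 9 libraries without antibiotics. It held 0.389%, 0.110% and 0.227% in Sham 1 to 3, then 0.273%, 0.127% and 0.0637% in SAH 1 to 3, and 0.0827%, 0.407% and 0.855% in SAH+Tet 1 to 3. Its group means were 0.242% ± 0.140, 0.155% ± 0.107 and 0.448% ± 0.388 (SD, n = 3 each), with overlap between all 3 groups. SAH+Tet held both its highest library and its second lowest. By edgeR the log2 fold change was -0.65 between SAH and Sham (adjusted p = 0.811) and 1.42 between SAH+Tet and SAH (adjusted p = 0.534).

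The weight of Helicobacter rodentium within its genus differed widely between libraries of the same group. It made up 71.3%, 51.9% and 96.6% of the Helicobacter reads in Sham, 98.5%, 56.4% and 11.8% in SAH, and 15.1%, 84.9% and 100% in SAH+Tet. Sham 3, SAH 1 and SAH+Tet 3 were thus nearly or wholly Helicobacter rodentium, whereas SAH 3 and SAH+Tet 1 were mostly other ASVs. The 2 shallower libraries without antibiotics, SAH 1 and SAH+Tet 3, were among the 3 with the highest Helicobacter rodentium share of the genus, and Sham 3 was a deep library.

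**Figure D2:**
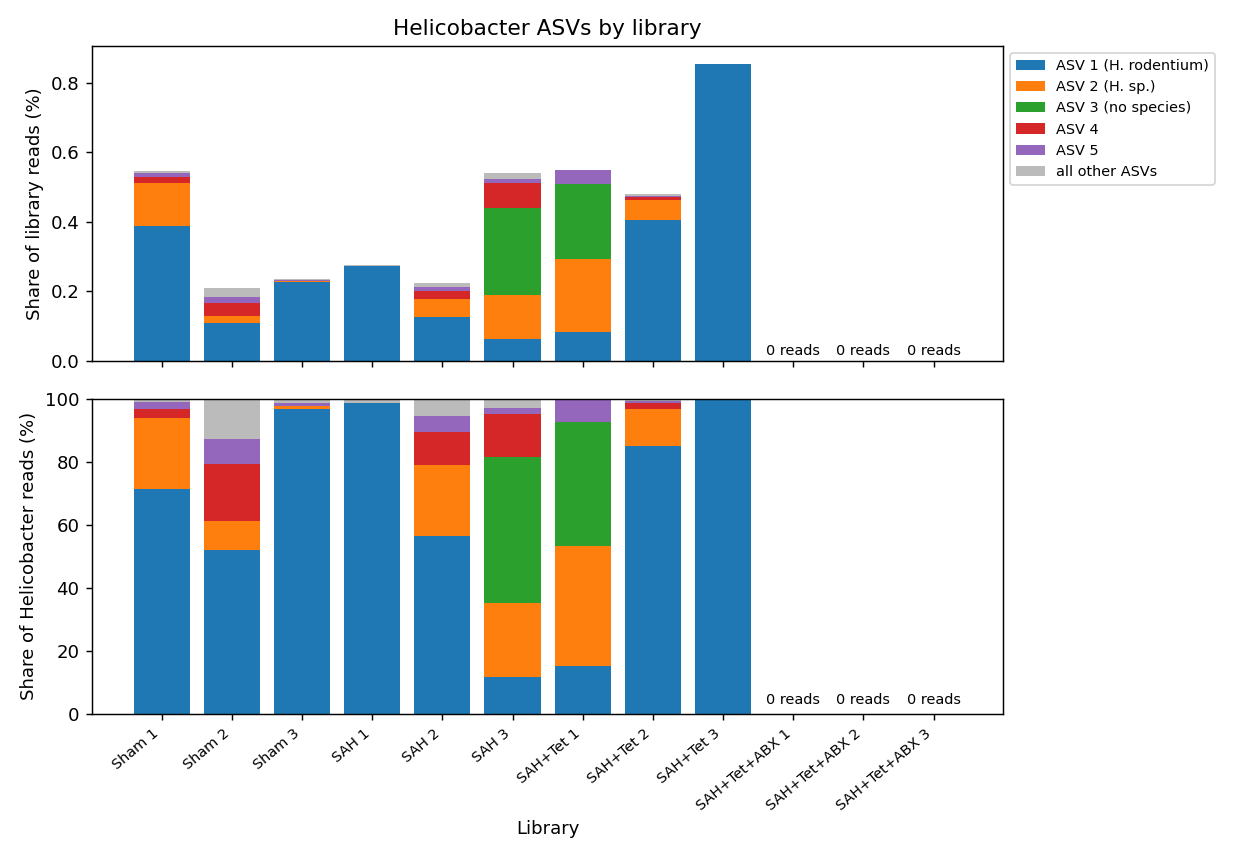
Helicobacter ASVs in the 12 libraries as stacked bars, as share of library reads (%, top) and as percentage of the library's Helicobacter reads (bottom), with SAH+Tet+ABX marked as 0 reads. ASV 1, Helicobacter rodentium, runs from 11.8% to 100% of the genus, and ASV 3 appears only in SAH 3 and SAH+Tet 1.

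ASV 2 ran from 0.00231% to 0.123% in Sham and had no read in SAH 1 and SAH+Tet 3. ASV 3 had reads in 2 libraries of different groups, 1125 in SAH 3 (0.251%) and 987 in SAH+Tet 1 (0.215%), and none elsewhere. ASV 2 also had its highest shares in those libraries, 0.126% and 0.210%. Without Helicobacter rodentium the rest of the genus held 0.476% in SAH 3 and 0.466% in SAH+Tet 1, and at most 0.157% in each of the other 7 libraries without antibiotics. The high Helicobacter level of SAH 3 and SAH+Tet 1 was therefore made mostly of ASVs other than Helicobacter rodentium. That of SAH+Tet 2 and SAH+Tet 3 was mostly or wholly Helicobacter rodentium. SAH+Tet 2 also held 292 reads of ASV 2.

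The less abundant Helicobacter ASVs were spread thinly over the groups. ASV 4 ranged up to 0.0722% (SAH 3) and had 0 reads in 4 of the 9 libraries without antibiotics, namely Sham 3, SAH 1, SAH+Tet 1 and SAH+Tet 3. ASV 5 ranged up to 0.0402% (SAH+Tet 1). Helicobacter typhlonius had 17 and 7 reads in Sham 2 and Sham 3, 8 and 5 in SAH 1 and SAH 2, and 3 in SAH+Tet 2. Helicobacter muridarum had 6 reads in Sham 2 and 11 in SAH 3. ASVs 10 to 19 had reads in 1 library each, 13 at most.

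ASV 7 had reads in all 3 Sham libraries (15, 12 and 6), in SAH 2 and SAH 3 (23 and 31), and in no SAH+Tet library. Its p between SAH+Tet and SAH was 0.0155 unadjusted and 0.179 after adjustment (edgeR), so the difference did not pass. It was chosen for mention here after its values were seen. The ASV passed the filter only through Sham and SAH, where it was high, so this p is a description.

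The number of Helicobacter ASVs per library was 6, 8 and 6 in Sham, 3, 12 and 10 in SAH, and 4, 7 and 1 in SAH+Tet. The lowest counts, 1 and 3, came from the 2 shallower libraries. Thinned to 211450 reads, the deeper SAH 2 and SAH 3 would still hold 10.3 and 9.72 ASVs on average, and SAH+Tet 1 and SAH+Tet 2 would hold 4 and 6.67. The effective number of ASVs (inverse Simpson index, which counts ASVs by their weight) was 1.78, 3.06 and 1.07 in Sham, 1.03, 2.61 and 3.30 in SAH, and 3.04, 1.36 and 1 in SAH+Tet. Sham, SAH and SAH+Tet therefore each held libraries ruled by 1 ASV beside libraries with about 3 in effect.

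Of the 19 Helicobacter ASVs, 9 were found in Sham, 17 in SAH and 8 in SAH+Tet, and 6 in all of these groups. SAH had 8 that no other group held, 47.1% of its 17, and they made up 32 reads. Of all 3190 ASVs found in SAH, 33.7% were in no other group.

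Mucispirillum was split more evenly over its ASVs, and 4 of its 13 ASVs had reads in more than 1 group. Of its 739 reads, 9 ASVs listed as an uncultured bacterium held 74.7%, 2 listed as an unspecified Mucispirillum species held 24.6%, and 2 without a species field held 5 reads. The 7 ASVs with the highest mean shares carried 179, 135, 110, 75, 74, 72 and 55 reads. No ASV carried the name Mucispirillum schaedleri.

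ASV 1, one of those listed as uncultured, was the main Mucispirillum ASV of Sham. It held 0.0121%, 0.00782% and 0.0137% in Sham 1 to 3 (60, 39 and 71 reads), 0.00201% in SAH 3 (9 reads) and had no read in SAH 1, SAH 2 or any SAH+Tet library. Every Sham library lay above every SAH library, as was the case for 23.7% of the 2283 ASVs tested. The ASV reached 10 reads in the 3 Sham libraries alone, so it entered the test only through the group where it was high, and this order is a description. The log2 fold change between SAH and Sham was -3.72 ± 2.19 (SE), and edgeR did not call it (adjusted p = 0.350).

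ASV 3, an unspecified Mucispirillum species, had no read in Sham, 4 reads in SAH 1 (0.00161%), and 82, 17 and 7 reads in SAH+Tet 1 to 3 (0.0179%, 0.00329% and 0.00308%). Every SAH+Tet library lay above every SAH library. The exact 95% intervals of SAH+Tet 3 (0.00124% to 0.00635%) and SAH 1 (0.000439% to 0.00412%) overlapped, however. The same order held for 9.81% of the ASVs tested, a set without this ASV, which had 10 reads in too few libraries to be tested. ASV 6, the second ASV of that name, had 56 and 16 reads in SAH+Tet 1 and SAH+Tet 2 and none elsewhere. Together these 2 ASVs made up 42.2%, 55.0% and 70.0% of the Mucispirillum reads in SAH+Tet and 0% in each Sham library, with exact 95% upper limits of 3.45%, 6.38% and 3.59% in Sham. In SAH they were all 4 reads of SAH 1 (exact interval 39.8% to 100%) and none of the reads of SAH 2 and SAH 3. These shares were set side by side after the values were seen and were not tested.

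**Figure D3:**
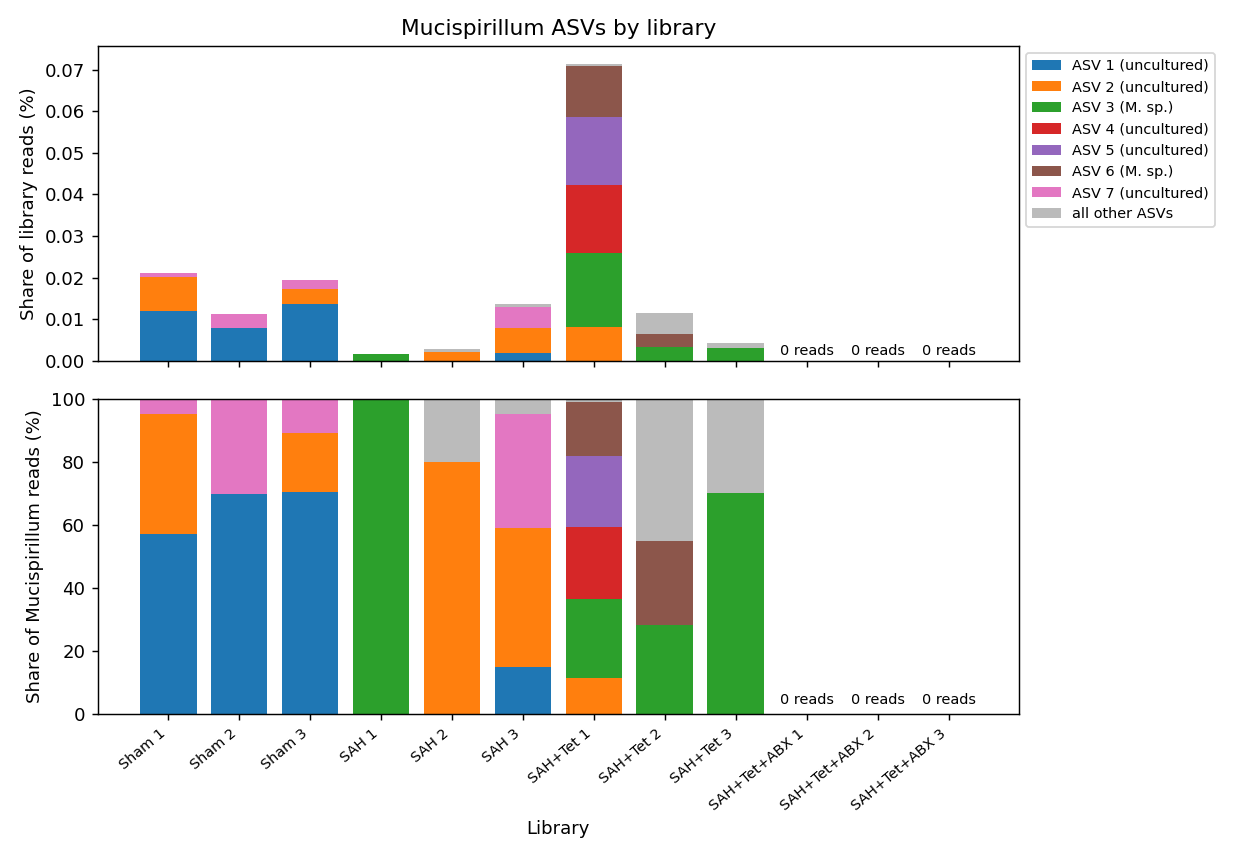
Mucispirillum ASVs in the 12 libraries as stacked bars, as share of library reads (%, top) and as percentage of the library's Mucispirillum reads (bottom), with SAH+Tet+ABX marked as 0 reads. ASV 1 is present in all 3 Sham libraries and in SAH 3, ASV 3 in SAH 1 and all 3 SAH+Tet libraries, and the tall bar of SAH+Tet 1 is shared by 7 ASVs.

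The remaining named ASVs were each spread over few libraries. ASV 2 had 40 and 19 reads in Sham 1 and Sham 3, 12 and 27 in SAH 2 and SAH 3, and 37 in SAH+Tet 1. ASV 4 (75 reads) and ASV 5 (74 reads) were found in SAH+Tet 1 alone. ASV 7 had 5, 17 and 11 reads in Sham, 22 in SAH 3 and none in SAH 1, SAH 2 and SAH+Tet. Its p between SAH+Tet and SAH was 0.0468 unadjusted and 0.237 adjusted (edgeR), and did not pass.

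The high Mucispirillum share of SAH+Tet 1 was not made up of the ASVs seen in Sham, since ASV 2 was the only one of its 7 ASVs with a read there. SAH+Tet held 10 of the 13 Mucispirillum ASVs, of which 8 (80.0%), with 254 reads, were in no other group. Of all 3909 ASVs found in SAH+Tet, 37.5% were in no other group, and the difference between these shares was not tested. Sham held 3 and SAH 5, and ASV 2 was the only ASV found in all 3 groups. Libraries held 3, 2 and 3 Mucispirillum ASVs in Sham, 1, 2 and 4 in SAH, and 7, 4 and 2 in SAH+Tet. The effective number was 4.79 in SAH+Tet 1 and 3.96 in SAH+Tet 2, above the 1 to 2.86 of the other 7 libraries.

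Reads in a single library were common to ASVs of both genera and to the table as a whole. This held for 10 of the 19 Helicobacter ASVs and 7 of the 13 Mucispirillum ASVs, together 53.1%, against 47.9% of all ASVs. Such ASVs cannot be compared between groups, and 13 of the 32 had fewer than 10 reads in all.

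Of the 32 member ASVs, 9 had 10 reads in at least 3 libraries and were tested singly, 6 of Helicobacter holding 86.4% of its reads and 3 of Mucispirillum holding 49.9%. The other 23 were not tested, Helicobacter ASV 3 among them. Between SAH and Sham edgeR called 0 of the 9, as it did 0 of all 2283 ASVs tested (0%), with 552 at an unadjusted p under 0.05 and no member among those. Between SAH+Tet and SAH it called 0 of the 9 and 0 of 2283 (0%), with 474 at an unadjusted p under 0.05, of which Helicobacter ASV 7 and Mucispirillum ASV 7 were the 2 members. Both had no read in SAH+Tet and passed the filter only through Sham and SAH, so this count of members is a description. DESeq2 called 341 and 243 ASVs in these comparisons and limma 270 and 112, with no member in any of them.

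Between SAH+Tet+ABX and SAH+Tet, edgeR called 1 of the 9 member ASVs, beside 247 of 2394 ASVs (10.3%). It was Helicobacter rodentium, which was at least 342-fold lower with antibiotics (adjusted p = 0.0170). Without SAH+Tet+ABX 3 its adjusted p was 0.0506 and no member was called. Helicobacter ASV 2 was at least 68.0-fold lower and ASV 5 at least 11.1-fold lower, with edgeR adjusted p of 0.0625 and 0.0635, which did not pass. Over the 4 groups edgeR again called Helicobacter rodentium alone among the 9 (adjusted p = 0.0410), beside 430 of 2394 ASVs (18%). That call was lost with depth class as a block (edgeR adjusted p = 0.0704) and without any one of the Sham or SAH+Tet+ABX libraries or SAH 2 (0.0578 to 0.0979). All 32 member ASVs had 0 reads in SAH+Tet+ABX, as had 84.8% of all ASVs.

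The genera whose shares were ordered most like those of each member over the libraries were found by Spearman's correlation, given as a description. Over the 12 libraries Helicobacter was most like Bilophila (rho = 0.93), the Eubacterium ventriosum group (0.89) and an unnamed Oscillospirales feature (0.88), of 194 genera. Mucispirillum was most like Desulfovibrio (0.95), Anaerofilum (0.93) and Treponema (0.93). These values rest in part on the antibiotic libraries, which are at or near 0 together. Over the 9 libraries without them, the order was Intestinimonas (0.89), Bilophila (0.83) and the Oscillospirales feature (0.83) for Helicobacter, and Oscillibacter (0.93), Desulfovibrio (0.88) and Anaerofilum (0.87) for Mucispirillum. The 2 members had a rho of 0.74 with each other over 12 libraries and of 0.40 over 9.

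The 2 genera were then set beside 11 genera listed as users of mucin or residents of mucus, crypt or epithelial surface. Among these are Akkermansia, which grows on mucin, the gnavus and torques groups of Ruminococcus, which cleave its sugars, and Desulfovibrio and Bilophila, which reduce sulphur compounds. The list also holds the spiral genera Campylobacter, Brachyspira and Treponema, as well as Bacteroides, Bifidobacterium and Candidatus Arthromitus, the segmented filamentous bacteria. Between SAH and Sham edgeR tested 8 of the 11 and called 0, with 3 above and 5 below 0 and a median log2 fold change of -1.11, against 0.10 over all 187 genera. DESeq2 called 3, beside 48 of all genera tested (26.1%), and limma 2, beside 9 (4.81%). At an unadjusted p under 0.05 there were 4 by edgeR, beside 55 of all genera. The Ruminococcus torques group (log2 fold change -6.59) was among those 4 and among the 5 below 0. It had no read in SAH and at most 0.00135% in SAH+Tet, and passed the filter only through Sham, where it was high. These counts and the median are therefore a description. Between SAH+Tet and SAH edgeR called 0 of 8, with a median of -0.10 against 0.28 (-0.31 against 0.25 with genera at 0 reads set at their bound). Of these 8, 3 had an unadjusted p under 0.05 by edgeR, beside 33 of all genera. DESeq2 called 3, beside 30 of all genera tested (16.3%), and limma 0, beside 1 (0.535%).

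With antibiotics 5 of the 9 list genera tested were called by edgeR, 3 lower and 2 higher. Over all 195 genera 74 were called (37.9%), 56 lower and 18 higher. Desulfovibrio (adjusted p = 0.00180), Bilophila (0.00304) and Treponema (0.0123) had 0 reads in all 3 SAH+Tet+ABX libraries, from SAH+Tet means of 0.0655%, 0.0290% and 0.315%. They were called under every alternative that gave them a p. The median log2 fold change of the list was 2.60, against -1.70 over all 195 genera, or -1.24 with genera at 0 reads set at their bound. The list median counts the Ruminococcus gnavus group (14.77), which entered the test only through the antibiotic libraries, where it was high. The median is therefore a description, and its distance from that of all genera was not tested.

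Akkermansia and the Ruminococcus gnavus group lay the other way. Akkermansia rose from 0.0176% ± 0.0263 (SD, n = 3) in SAH+Tet to 1.18% ± 0.829 in SAH+Tet+ABX (edgeR adjusted p = 0.0465), beside 2.77% ± 2.33 in Sham and 0.0259% ± 0.0231 in SAH. That call held under 7 of 14 alternatives, with an adjusted p of up to 0.153. The gnavus group had reads in SAH+Tet+ABX alone, at 0.833% ± 1.07. It passed the filter on low counts only through those 3 libraries, so its call is no support beyond that description. Campylobacter and Brachyspira did not reach 10 reads in 3 libraries and were not tested. Neither had a read in SAH+Tet or in SAH+Tet+ABX. Campylobacter had reads in Sham alone and Brachyspira in SAH alone.

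**Figure D4:**
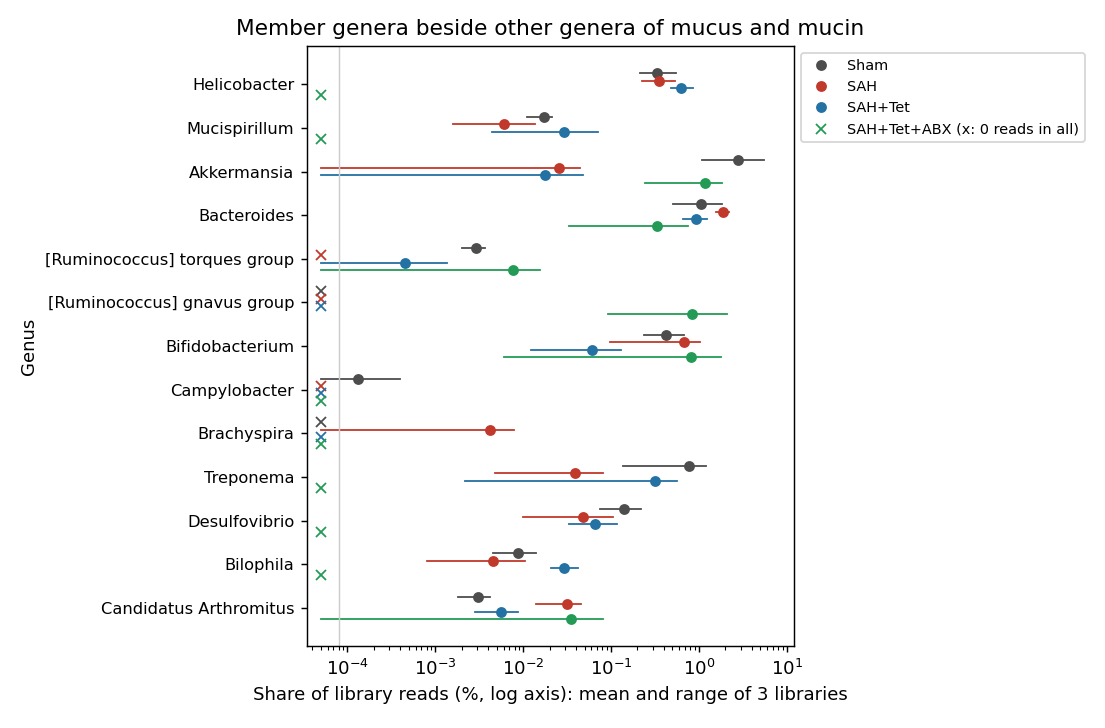
Share of library reads (%, log axis) of Helicobacter, Mucispirillum and the 11 listed genera by group, with the mean of 3 libraries as dots and their range as lines. Crosses left of the grey line mark groups with 0 reads in all 3 libraries, and lines that reach the left edge have a lowest library at 0. Helicobacter, Mucispirillum, Treponema, Desulfovibrio and Bilophila have 0 reads in SAH+Tet+ABX, where Akkermansia and the gnavus group have means of 1.18% and 0.833%.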

How the data were processed

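DNA of 12 rat faecal samples was amplified over the 16S rRNA gene and sequenced, per the labels' protocols. The authors deposited raw read counts per ASV with a taxonomy string, and the 12 columns of the series table were identical to the per-sample tables. Fastp and cutadapt were used, per the submitters' processing notes. For the denoiser, the chimera filter, the 16S region and the source of the taxonomy, names were not given in the sources used here. Wrong or missing genus names in that database would change the members. Groups came from the treatment label. A second treatment label names a cell differentiation and is the same for all 12 samples, as are the time and batch labels; it was not used. No library repeated another: within groups, chi-square per degree of freedom of the counts was at least 286.

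Here 2 Eukaryota ASVs (at most 5 reads per library) were left out, and the remaining 7238 ASVs were summed to 384 genus features, 303 with a genus name. Between 68.5% and 89.2% of a library's reads had one. Counts with at least 10 reads in at least 3 libraries were tested in R 4.3.3 with edgeR 4.0.16 (quasi-likelihood test, TMM scaling, Benjamini-Hochberg over all features of that level, threshold 0.05). The fit used the 9 libraries without antibiotics, or all 12 where the antibiotic group entered. Permutation tests used the log10 of the percent share plus 0.001 in Python. Alternatives were DESeq2 1.42.0, limma 3.58.1 on centred log-ratio values, other scalings, no filter, blocks and leaving out each library. The edgeR step was tested on simulated data.

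Named were both genus sums, every species name, the ASVs with the largest mean shares up to 90% of a genus or 10 ASVs, and any ASV past the threshold. The members and lists were chosen with earlier results of these data known. Copy number of the 16S gene was not corrected.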

Additional observations from a re-analysis of the deposited data

How the results depend on the processing

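With 3 libraries a group and relative shares alone, only large differences could be called, and Mucispirillum rested on 4 to 327 reads a library. The fall of both genera with antibiotics passed the threshold under all 8 alternatives and each of 6 left-out libraries, with edgeR, DESeq2 or limma adjusted p of 8.81e-18 to 0.00768 for Helicobacter and 1.31e-05 to 0.0272 for Mucispirillum. Neither genus was called between SAH and Sham or between SAH+Tet and SAH under any alternative run. Scaling moved the median log2 fold change of all genera with antibiotics from -1.70 to -1.85 (library size), -1.19 (DESeq2 size factors) and -0.03 (centred log-ratio). The causes of the changes below were not tested.

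The SAH against Sham difference of Helicobacter turned to -0.39 under limma on centred log-ratio values (adjusted p = 0.838), and left-out libraries gave edgeR adjusted p of 0.418 to 0.989. Without the filter, edgeR called 1 member ASV between SAH and Sham (Helicobacter ASV 3). All 1125 reads of that ASV in SAH came from SAH 3, so the call rests on 1 library. With antibiotics DESeq2 called 3 of the 9 member ASVs tested, beside 712 ASVs called in all (31.4%). The member ASVs called were 3 without the filter and 0 to 3 with a library left out (0 without SAH+Tet+ABX 3, 3 without SAH+Tet 3). Among the 4 groups limma called 2 of the 9, beside 778 ASVs called in all (32.5%). The member ASVs called there were 3 without the filter, 0 with depth class as a block and 0 to 2 with a library left out. The count was 0 without any Sham or SAH+Tet+ABX library or SAH 2, and 2 without SAH 1 or SAH 3. These counts of members are a description. Mucispirillum among the 4 groups had edgeR adjusted p of 0.0183 to 0.0623 with a library left out. Its exact permutation p was 0.0873 with an added constant of 0.01% and 0.217 without the logarithm. The list of mucus genera, run under alternatives chosen after seeing the data, gave 3 to 8 calls with antibiotics. DESeq2 called 8, beside 105 of all genera tested (55.6%), and limma 7, beside 75 (38.5%). The count was 3 with the replicate block, with only the 6 libraries compared or without SAH+Tet+ABX 3.

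Replicate numbers showed no regular pairing of the libraries: of 18 same-numbered pairs, 4 had a correlation over 0.1 (-0.60 to 0.55, over 195 genera). With 3 libraries a group, this count cannot exclude a pairing. With the replicate number as a block, Mucispirillum among the 4 groups lost its call (edgeR adjusted p = 0.0794), and no other call of a member genus or count of member ASVs changed.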
